A study of Mus musculus with 8 samples.

Results

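Genes of the circadian clock and its output were followed in RAW macrophages, a mouse cell line with macrophage properties. They were Per1, Per2, Per3, Cry1, Cry2, Nr1d1, Nr1d2, Clock, Dbp and Bhlhe40. They were chosen by symbol, with earlier results of these data known, and made up 10 of the 24421 genes in each deposited table. RNA-seq was available for 4 groups of 2 libraries. The ctl cells are called untreated in the study's RNA-seq methods, whereas its cell culture methods name water as the negative control. The MCD cells received 5 mM methyl-β-cyclodextrin, a ring-shaped sugar that extracts membrane cholesterol, for 1 h. The LPS cells received 100 ng/ml lipopolysaccharide, a bacterial ligand of Toll-like receptor 4, for 3 h. The MCD-LPS cells received MCD in the same way, were washed, and then received LPS for 3 h, so that MCD was absent while LPS acted. The comparisons asked whether lowering cholesterol changed expression at rest and after the inflammatory stimulus. All groups are 1 cell line, and neither the hour of collection nor a step that would synchronise the cells' clocks is given in the sources used here. The study's methods describe untreated and MCD-treated cells as duplicates, which places the duplication at the treated cells. They do not say whether these came from separate cultures or days, nor how the LPS groups were duplicated, and the p-values therefore reflect only how far these libraries spread, which may be technical.

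As background, the mammalian clock is a transcriptional loop. CLOCK and BMAL1 (encoded by Arntl) form a dimer that binds E-boxes and drives the Per and Cry genes, whose PER and CRY proteins return to repress that dimer. A further loop runs through the nuclear receptors REV-ERBα (Nr1d1) and REV-ERBβ (Nr1d2), which repress Arntl. Bhlhe40 encodes DEC1, a basic helix-loop-helix repressor that also binds E-boxes, and Dbp encodes a PAR bZIP activator that binds D-boxes and relays the rhythm to output genes. In macrophages the clock is known to gate inflammatory responses, and REV-ERBα represses inflammatory genes there.

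Each library held 38645458 to 48436956 reads in genes, so that 3 counts corresponded to 0.0619 to 0.0776 CPM, that is, counts scaled to the sum of reads in genes. All 8 macrophage markers examined, among them Cd68 and Csf1r, averaged above 1 CPM over the libraries, although Mrc1, the lowest, ran from 0.75 to 2.02 CPM. No marker of B cells, T cells, neutrophils, fibroblasts or epithelial cells reached 1 CPM in any library. The LPS pair differed most from each other: the SD of the log2 ratio between its libraries was 0.174, against 0.0976 to 0.123 in the other pairs. Tnf, a cytokine gene, stood at 28604 normalized counts in LPS replicate 1 and 65913 in LPS replicate 2, and the called members' changes, their differences and the LPS ratios are also given below without each of these libraries. Normalized counts were comparable only within a table, ctl with MCD and LPS with MCD-LPS. LPS treatment and table cannot be told apart, since no table held libraries both with and without LPS. The library headers also carry a code that is shared by ctl and MCD and differs from that of LPS and MCD-LPS. What this code stands for is not given, and it cannot be told apart from LPS either.

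The promoters of these genes were searched for a few short motifs near the start. Other motifs and sites farther away were not searched. Windows of 300 bases, from 250 before to 50 after the start, came from RefSeq (GRCm38.p6) for 8 of the 10 genes. Per2 and Bhlhe40 were not matched. Both strands were searched for the E-box CACGTG, the E-box variant CACGTT, the D-box TTATGTAA and the cAMP response element TGACGTCA, none of which overlapped another where found. Of 32851 windows, 7.15% held CACGTG, 4.68% CACGTT, 0.938% TTATGTAA and 1.79% TGACGTCA. The 5 members whose window held a motif are shown 5′ to 3′ on the gene's strand, with each motif in capitals (AACGTG is CACGTT on the other strand).
Per1: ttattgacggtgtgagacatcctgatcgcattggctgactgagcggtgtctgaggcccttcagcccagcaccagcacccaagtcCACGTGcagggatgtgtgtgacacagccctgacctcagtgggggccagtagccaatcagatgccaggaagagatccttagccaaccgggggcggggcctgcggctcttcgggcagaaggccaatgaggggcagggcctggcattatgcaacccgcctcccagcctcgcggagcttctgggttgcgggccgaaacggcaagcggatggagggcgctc
Per3: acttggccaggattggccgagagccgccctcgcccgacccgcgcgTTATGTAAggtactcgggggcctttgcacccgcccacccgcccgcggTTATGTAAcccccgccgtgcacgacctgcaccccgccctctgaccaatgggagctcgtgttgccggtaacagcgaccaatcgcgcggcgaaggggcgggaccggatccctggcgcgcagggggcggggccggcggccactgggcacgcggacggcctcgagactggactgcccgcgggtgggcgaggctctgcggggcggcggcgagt
Cry1: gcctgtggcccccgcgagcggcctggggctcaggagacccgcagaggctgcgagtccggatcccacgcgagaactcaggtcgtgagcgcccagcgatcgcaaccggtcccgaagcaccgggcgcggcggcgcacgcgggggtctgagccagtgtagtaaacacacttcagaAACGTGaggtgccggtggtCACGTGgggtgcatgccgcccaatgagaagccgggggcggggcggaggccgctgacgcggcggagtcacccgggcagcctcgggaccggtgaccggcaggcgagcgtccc
Cry2: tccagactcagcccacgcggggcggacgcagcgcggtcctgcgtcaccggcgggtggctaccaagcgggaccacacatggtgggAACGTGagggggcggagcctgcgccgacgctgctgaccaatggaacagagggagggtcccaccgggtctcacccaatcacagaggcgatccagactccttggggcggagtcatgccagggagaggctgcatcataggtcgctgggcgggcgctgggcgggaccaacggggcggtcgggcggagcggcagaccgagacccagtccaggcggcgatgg
Nr1d1: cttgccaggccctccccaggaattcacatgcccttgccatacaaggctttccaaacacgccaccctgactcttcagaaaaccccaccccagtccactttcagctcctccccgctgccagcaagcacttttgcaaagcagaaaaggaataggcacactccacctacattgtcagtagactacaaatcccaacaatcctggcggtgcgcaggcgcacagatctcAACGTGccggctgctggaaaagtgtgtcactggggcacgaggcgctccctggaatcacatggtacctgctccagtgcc
Per1 (chr11:69098699-69098998, plus strand) held 1 E-box that began 166 bases before the start. Per3 (chr4:151044616-151044915, minus strand) held no E-box but a pair of D-boxes, at 205 and 158 bases before the start. Cry1 (chr10:85185005-85185304, minus strand) held an E-box at 60 bases and the CACGTT variant at 79 bases before the start. Cry2 (chr2:92434020-92434319, minus strand) and Nr1d1 (chr11:98775328-98775627, minus strand) each held the CACGTT variant, at 166 and 28 bases. The windows of Nr1d2, Clock and Dbp held none of these letters, nor did a further window of Per1. A match describes letters only and shows no binding.

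Per length of exon, the members' levels in ctl cells differed widely. Nr1d2 (11.3 ± 0.915, mean ± SD, n = 2 here and below, in RPKM, that is, CPM per kilobase of exon) and Bhlhe40 (10.6 ± 0.508) headed the order and differed by less than the larger of their SDs. Cry1 (8.83 ± 0.0794) and Per1 (8.6 ± 0.138) followed, then Clock (5.68 ± 0.114). Dbp (3.72 ± 0.254), Cry2 (2.94 ± 0.058) and Nr1d1 (2.31 ± 0.247) were lower. Per3 (0.316 ± 0.00633) and Per2 (0.107 ± 0.0133) stood far below all others. Over all libraries, Per2 rested on as few as 23 reads, in MCD replicate 2. Per2 and Per3 were the lowest pair in all 4 groups. The top of the order differed between groups: it was Per1 in LPS cells (14.1 ± 0.229 RPKM) and Bhlhe40 in MCD-LPS cells (20.3 ± 0.0872 RPKM). The order depends on the length used. All annotated exons of a gene were merged, which made Clock the longest member at 13727 bases. On CPM, which leaves out length, Clock stood highest in ctl cells (mean 77.9 CPM).

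**Figure D1:**
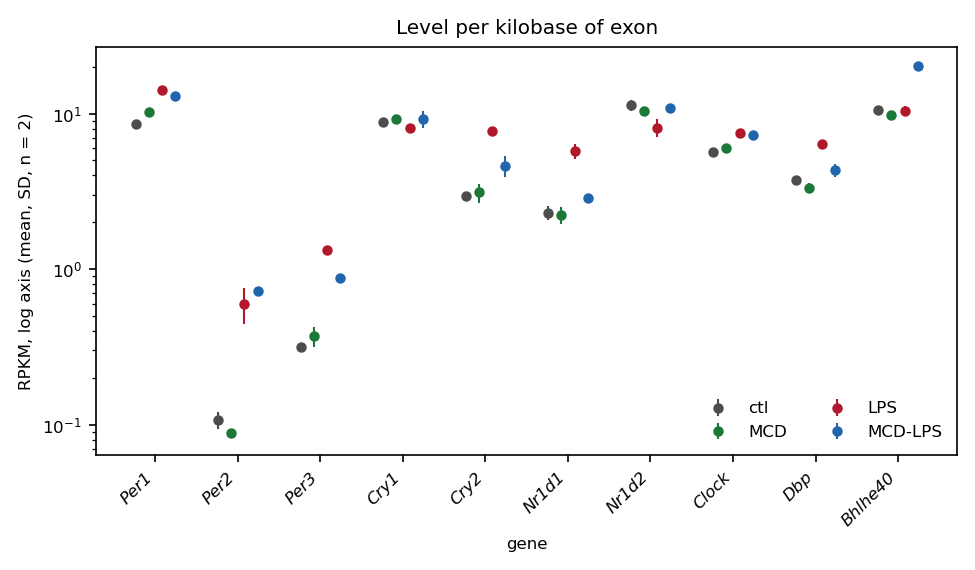
Level of each clock gene in RPKM (log axis) in ctl, MCD, LPS and MCD-LPS cells; points are means and bars the SD of 2 libraries. Per2 and Per3 lie lowest in every group, and Bhlhe40 in MCD-LPS cells is the highest point, at 20.3.

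MCD for 1 h moved 1 of the 10 genes past the test at rest. Per1, a period gene known as an immediate-early responder to external signals, rose 1.19-fold, and the other 9 members did not pass. Across all 11777 genes tested with limma, 1.11% were called at an adjusted p under 0.05, with 127 (1.08%) higher and 4 (0.034%) lower. Over the members the median log2 fold change was 0.02 and the median absolute change 0.11, beside -0.00 and 0.06 over all genes tested. The libraries of the 2 groups did not overlap for 8 of the 10 members, against 47.9% of all genes.

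Per1 (chr11:69095217-69109960, mm10) stood at 2171 and 2226 normalized counts in ctl and at 2651 and 2594 in MCD libraries, so both treated libraries lay above both untreated ones. Its log2 fold change was 0.25 (SE 0.04, limma adjusted p = 0.0255). The change was 0.24 to 0.27 under every alternative tried, but without ctl replicate 1, ctl replicate 2, MCD replicate 1 or MCD replicate 2 the adjusted p was 0.255, 0.156, 0.228 and 0.192. The call therefore needed all 4 of these libraries. Each of these fits left 1 library in a group, and calls over all genes also became fewer.

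Per3 (chr4:151003652-151044665), a period gene with a minor part in the core loop, gave 135.9 and 140.2 normalized counts in ctl and 177.9 and 146 in MCD libraries (log2 0.22, SE 0.11, limma adjusted p = 0.559). Per2 (chr1:91415982-91459324), a core repressor, gave 30.9 and 25.96 in ctl and 24.47 and 22.84 in MCD libraries (log2 -0.25, 95% interval -0.71 to 0.21, adjusted p = 0.752). That interval spans falls and rises, so these libraries do not settle the direction of a Per2 change. For the remaining 7 members the log2 fold changes ran from -0.15 for Dbp (95% interval -0.35 to 0.05) to 0.08 for Clock, Cry1 and Cry2. Nr1d1 (log2 -0.04) and Cry2 changed sign when single libraries were left out, and their MCD and ctl libraries overlapped.

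When MCD preceded LPS, 6 of the 10 clock genes differed from LPS alone, and they did so in both directions. Nr1d1, Cry2, Per3 and Dbp fell by 1.96-fold, 1.67-fold, 1.49-fold and 1.46-fold. Bhlhe40 rose 1.98-fold and Nr1d2 rose 1.35-fold. Per1, Per2, Cry1 and Clock did not pass the test. Of all 11976 genes tested, limma called 25.9%, with 12.9% higher and 13% lower. Over the members the median log2 fold change was -0.07 and the median absolute change 0.49, beside 0.00 and 0.13 over all genes. The libraries of the 2 groups did not overlap for 8 of the 10 members, against 60.6% of all genes.

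**Figure D2:**
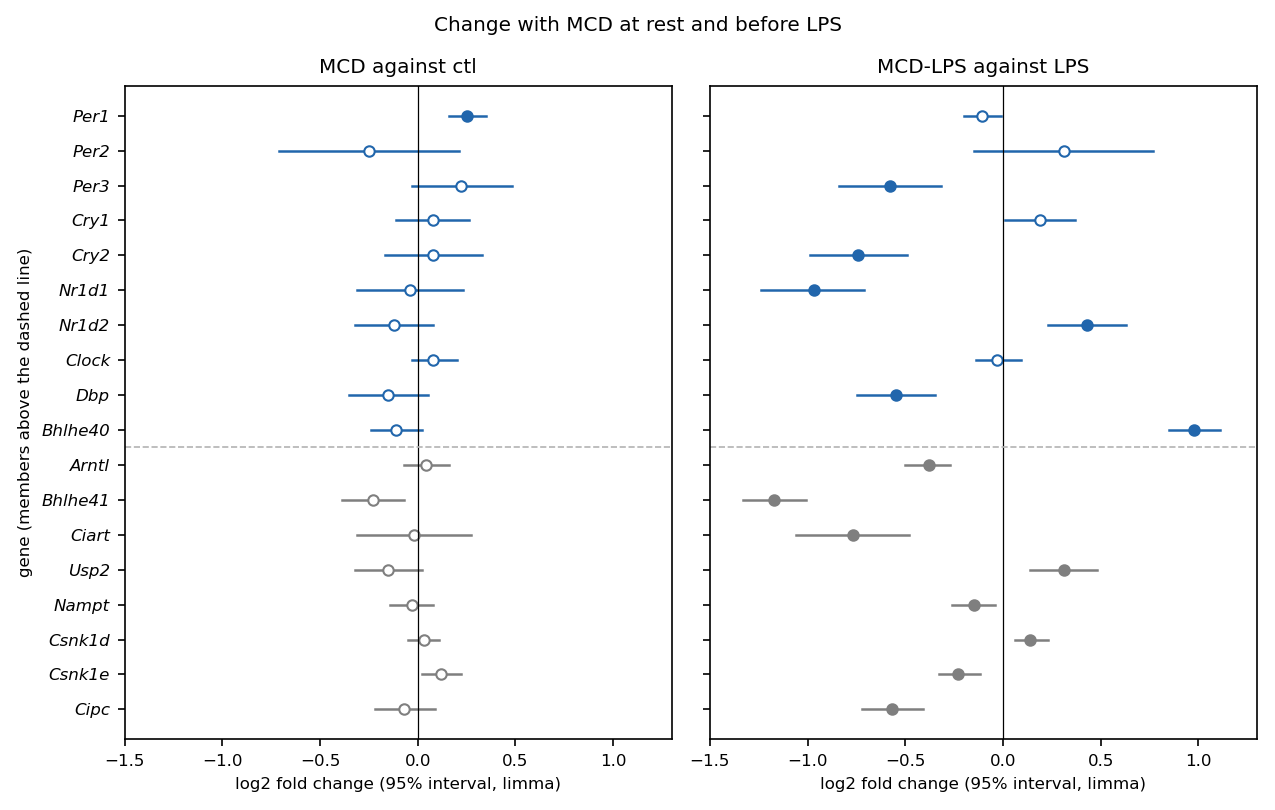
Log2 fold change of each clock gene with MCD at rest (left) and with MCD before LPS (right), with the 95% interval from limma (2 libraries per group); filled points passed an adjusted p of 0.05. The 10 members lie above the dashed line, and below it lie the other clock genes with values in the text, except Noct, which is not drawn. Per1 is the filled member on the left (0.25); on the right Nr1d1 lies at -0.97 and Bhlhe40 at 0.98.

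Among the repressors of the CLOCK and BMAL1 dimer, Cry2 (chr2:92403646-92434043) stood at 2018 and 1931 normalized counts in LPS and at 1322 and 1054 in MCD-LPS libraries. Its groups did not overlap, and the log2 fold change was -0.74 (SE 0.11, limma adjusted p = 0.00161). The gene that shares 4.67% of its exon bases, D930015M05Rik, did not exceed 0.0681 CPM. The Cry2 paralog Cry1 (chr10:85131700-85185064), the other cryptochrome, gave 1085 and 1102 in LPS and 1374 and 1135 in MCD-LPS libraries (log2 0.19, SE 0.08, adjusted p = 0.112). Cry1 thus leaned upward without passing, and its MCD-LPS libraries differed from each other by more than the groups' nearest values; without MCD-LPS replicate 2 the change was 0.33 (adjusted p = 0.0135), and without MCD-LPS replicate 1 it was 0.05.

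Of the 3 period genes, Per3 passed the test and Per1 and Per2 did not. Per3 gave 501.1 and 531.1 normalized counts in LPS and 360.2 and 330.4 in MCD-LPS libraries, a fall without overlap (log2 -0.58, SE 0.11, limma adjusted p = 0.00569). Per1 gave 3163 and 3249 in LPS and 3036 and 2925 in MCD-LPS libraries (log2 -0.11, SE 0.04, adjusted p = 0.111). Both MCD-LPS libraries of Per1 lay below both LPS libraries, but the difference did not pass across all genes. Per2 gave 115 and 166.9 in LPS and 178.1 and 165.7 in MCD-LPS libraries (log2 0.31, 95% interval -0.15 to 0.77). The Per2 value rested on LPS replicate 1, the lowest of the 4: it was 0.57 without LPS replicate 2 and 0.04 without LPS replicate 1.

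The REV-ERB receptor genes moved in opposite directions. Nr1d1 (chr11:98767932-98775333) stood at 762.9 and 653.2 normalized counts in LPS and at 372.3 and 346.5 in MCD-LPS libraries. These groups lay far apart, with a log2 fold change of -0.97 (SE 0.12, limma adjusted p = 0.000581). Nr1d2 (chr14:18204054-18239127) stood at 1603 and 1942 in LPS and at 2465 and 2295 in MCD-LPS libraries, so that both MCD-LPS libraries were higher (log2 0.43, SE 0.09, adjusted p = 0.00697). The Nr1d2 change was 0.29 without LPS replicate 1, 0.57 without LPS replicate 2, and 0.38 with an adjusted p of 0.0529, no longer past the test, without MCD-LPS replicate 1. Nr1d1 shares 263 bases, 8.55% of its exon bases, with Thra on the opposite strand, which encodes a thyroid hormone receptor. Thra changed by -0.34 (SE 0.06, adjusted p = 0.00264) at 20.6 to 51 CPM. The strand setting of the counting is not given, and the part of Thra reads in the Nr1d1 value was not tested.

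Bhlhe40 (chr6:108660629-108666925) had the lowest adjusted p of the members, at a fold change close in size to that of Nr1d1. It stood at 2079 and 1872 normalized counts in LPS and at 3938 and 3872 in MCD-LPS libraries. Both MCD-LPS libraries were well above both LPS ones, with a log2 fold change of 0.98 (SE 0.06, limma adjusted p = 4.94e-05). It was 1.06 without LPS replicate 1 and 0.91 without LPS replicate 2. The gene shares 118 exon bases (2.51%) with 0610040F04Rik on the other strand, which did not exceed 0.124 CPM in any library.

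Dbp (chr7:45705088-45710203), the output activator, stood at 782.6 and 755.4 normalized counts in LPS and at 495 and 558.7 in MCD-LPS libraries. The groups did not overlap (log2 -0.55, SE 0.09, limma adjusted p = 0.00225). Dbp shares 539 exon bases (18%) with Sphk2, a sphingosine kinase gene on the other strand that changed by -0.14 (adjusted p = 0.103) at 42.9 to 54.8 CPM; the part of those reads was not tested. Clock (chr5:76209868-76304792), the activator, gave 4059 and 4203 in LPS and 4248 and 3865 in MCD-LPS libraries, which overlapped. Its log2 fold change was -0.03 (95% interval -0.14 to 0.09, adjusted p = 0.744).

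Without LPS replicate 1 and without LPS replicate 2, the same 6 members passed in the same directions. Nr1d1 changed by -0.86 and -1.08, Cry2 by -0.71 and -0.77, Per3 by -0.62 and -0.54, and Dbp by -0.52 and -0.57. The falls of Nr1d1, Cry2, Per3 and Dbp and the rise of Bhlhe40 passed the test under all 17 alternatives tried. Of these 5, Per3 had the highest adjusted p under any alternative, 0.0463.

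The rest of the clock pathway, taken from 3 lists of 28 further genes, held 22 genes that passed the filter on low values. At rest, limma called 0 of the 22 at an adjusted p under 0.05, as did edgeR and DESeq2. An unadjusted limma p under 0.05 was found for 3 of the 22, against 10.7% of all genes. Those with an unadjusted limma p under 0.05 were Noct (Ccrn4l in the files), a clock-controlled gene at log2 0.27 (SE 0.08, adjusted p = 0.203), Bhlhe41, which encodes DEC2, at -0.23 (SE 0.07, adjusted p = 0.247, but 0.0404 and past the test with only the 4 libraries of the table), and Csnk1e at 0.12 (SE 0.05, adjusted p = 0.383). Noct was named after its value was seen. With MCD before LPS, 9 of the 22 were called, 3 higher and 6 lower, against 12.9% of all genes called higher and 13% lower. The median absolute log2 change of these 22 genes was 0.04 at rest and 0.13 before LPS, beside 0.06 and 0.13 over all genes tested.

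In the list of BMAL partners with the ROR, NFIL3 and DEC2 arm, 2 of 4 tested genes were lower (13% of all genes) and 0 were higher (12.9%) with MCD before LPS. Bhlhe41, the paralog of Bhlhe40, stood at 6833 and 6514 normalized counts in LPS and at 2994 and 2947 in MCD-LPS libraries (log2 -1.17, SE 0.07, limma adjusted p = 4.94e-05). The genes of the DEC1 and DEC2 repressors thus changed in opposite directions. Arntl, which encodes the CLOCK partner BMAL1, stood at 1834 and 1886 in LPS and at 1441 and 1408 in MCD-LPS libraries (log2 -0.38, SE 0.05, adjusted p = 0.000929), whereas Clock did not pass. Without LPS replicate 1 and without LPS replicate 2, Bhlhe41 changed by -1.13 and -1.20 and Arntl by -0.41 and -0.36. Arntl2, Npas2 and Rorb were among the genes that did not pass the filter.

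Of 6 tested PAR bZIP factors and clock-controlled genes, 1 was higher and 2 were lower, against 25.9% of all genes called in either direction, and 1 of the 3 calls, that of Nampt, did not hold under most alternatives. Ciart, which encodes the clock repressor CHRONO, gave 531.1 and 475.8 normalized counts in LPS and 297.8 and 292 in MCD-LPS libraries (log2 -0.77, SE 0.13, limma adjusted p = 0.00257). The Ciart change was -0.69 without LPS replicate 1 and -0.85 without LPS replicate 2. Its promoter window (chr3:95882179-95882478, minus strand) held 3 E-boxes. The window of Bhlhe41, the only other listed gene searched, held 1, at 153 bases before the start. Ciart and Bhlhe41 had the largest falls of the tested listed genes. Listed genes that rose or changed less were not searched, so these windows cannot show whether E-boxes go with the falls. A link between these letters and the changes was not tested. Usp2, a deubiquitinase gene, rose by 0.31 (adjusted p = 0.0148), and Nampt, the enzyme gene of NAD salvage, fell by 0.15 (adjusted p = 0.0479). Usp2 lost the call without MCD-LPS replicate 1 (0.22, adjusted p = 0.101) and with only the 4 libraries of the table (adjusted p = 0.0639), and Nampt lost it under 10 of 17 alternatives, where the adjusted p reached 0.278.

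Of 12 tested kinases, ligases and partners, 2 were higher and 2 were lower, against 12.9% and 13% of all genes. Cipc, a CLOCK-interacting inhibitor, gave 1502 and 1406 normalized counts in LPS and 1014 and 947.6 in MCD-LPS libraries (log2 -0.57, SE 0.07, limma adjusted p = 0.00054). The casein kinase genes Csnk1d and Csnk1e, whose products phosphorylate PER proteins, changed by 0.14 (adjusted p = 0.0181) and -0.23 (adjusted p = 0.00708). The Csnk1d call was lost without LPS replicate 1, MCD-LPS replicate 1 or MCD-LPS replicate 2, with adjusted p of 0.056, 0.0846 and 0.0654, and with only the 4 libraries of the table (0.0818). Without LPS replicate 1 and without LPS replicate 2, Cipc changed by -0.52 and -0.61 and Csnk1e by -0.19 and -0.26.

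The change with MCD before LPS was then tested against the change with MCD at rest, each taken within its own table. The difference passed for 6 of the 10 members, against 17.1% of the 11545 genes tested (7.12% higher and 9.99% lower). It was lower for Nr1d1 (log2 difference -0.93, SE 0.17, limma adjusted p = 0.00632), Cry2 (-0.82, SE 0.16, adjusted p = 0.00859), Per3 (-0.80, SE 0.16, adjusted p = 0.01) and Per1 (-0.36, SE 0.06, adjusted p = 0.00565). It was higher for Bhlhe40 (1.09, SE 0.08, adjusted p = 0.000104) and Nr1d2 (0.55, SE 0.13, adjusted p = 0.0175). For Per1 the difference joined a rise at rest to a small negative value before LPS, although the latter did not pass on its own. For Dbp, which fell before LPS, the difference did not pass (-0.39, SE 0.13, adjusted p = 0.0574). For Per2 (0.56, adjusted p = 0.22), Cry1 (0.12, adjusted p = 0.523) and Clock (-0.11, adjusted p = 0.33) it did not pass either. Thra, which shares exon bases with Nr1d1, passed in the same direction as Nr1d1 (-0.54, SE 0.08, limma adjusted p = 0.00283). The part of Thra reads in the Nr1d1 difference was not tested.

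Without LPS replicate 1 and without LPS replicate 2, the difference was -0.82 and -1.05 for Nr1d1, -0.79 and -0.85 for Cry2, -0.84 and -0.76 for Per3 and -0.38 and -0.34 for Per1. It was 1.17 and 1.02 for Bhlhe40 and 0.41 and 0.69 for Nr1d2, and these 6 passed both times. The Nr1d2 difference lost its call without ctl replicate 1, MCD replicate 2 or MCD-LPS replicate 1, with adjusted p of 0.0765, 0.0664 and 0.0588. MCD cells were harvested when MCD ended, whereas MCD-LPS cells had 3 h more, so LPS and the time since MCD cannot be told apart in these differences.

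Levels in LPS cells were set beside those in ctl cells on CPM, since the tables were normalized separately. CPM removes that scaling, but any other difference between the libraries of the tables cannot be told apart from LPS. The levels were higher in LPS than in ctl libraries for all 3 period genes, Cry2, Nr1d1, Dbp and Clock, and lower for Nr1d2 and, by less, Cry1. Whether ctl cells were held for the same 3 h is not given, so LPS and time in culture cannot be told apart in these ratios. Per2 had the largest ratio: it stood at 0.681 and 0.571 CPM in ctl and at 2.86 and 4.14 CPM in LPS libraries, 5.59-fold apart in the means. Per3 stood at 3.04 CPM in ctl and 12.8 CPM in LPS cells (means, 4.22-fold), and Cry2 at 18.6 and 49.1 CPM (2.64-fold). The groups did not overlap for any of these 3 genes.

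Nr1d1 stood at 7.12 CPM in ctl and 17.6 CPM in LPS cells (means, 2.47-fold), Dbp at 11.1 and 19.1 CPM (1.72-fold), Per1 at 48.4 and 79.7 CPM (1.65-fold) and Clock at 77.9 and 103 CPM (1.32-fold). Nr1d2 was lower, at 61.3 CPM in ctl and 44 CPM in LPS cells. Cry1 was also slightly lower, at 29.5 and 27.2 CPM without overlap of the libraries, but neither edgeR (adjusted p = 0.421) nor DESeq2 (adjusted p = 0.555) called it. Bhlhe40 stood at 49.9 and 49.1 CPM, and its libraries overlapped. Without LPS replicate 1 and without LPS replicate 2, the log2 ratios were 2.73 and 2.19 for Per2, 2.12 and 2.04 for Per3, 1.36 and 1.43 for Cry2 and 1.19 and 1.42 for Nr1d1. They were 0.75 and 0.81 for Dbp, 0.73 and 0.70 for Per1, 0.42 and 0.38 for Clock and -0.35 and -0.62 for Nr1d2. On the recovered reads of all 8 libraries, edgeR and DESeq2 each called 7 members higher and 1 lower, beside 72.5% of all 12208 genes called by edgeR (36% higher, 36.5% lower) and 66.9% by DESeq2 (33.7% higher, 33.2% lower). The 8 of 10 members called in either direction are close to the background, while the 7 of 10 called higher are a larger share than the 36% or 33.7% of all genes, a difference that was not tested. Because the members were chosen with earlier results of these data known, such shares cannot show that clock genes as a class differ from all genes.

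**Figure D3:**
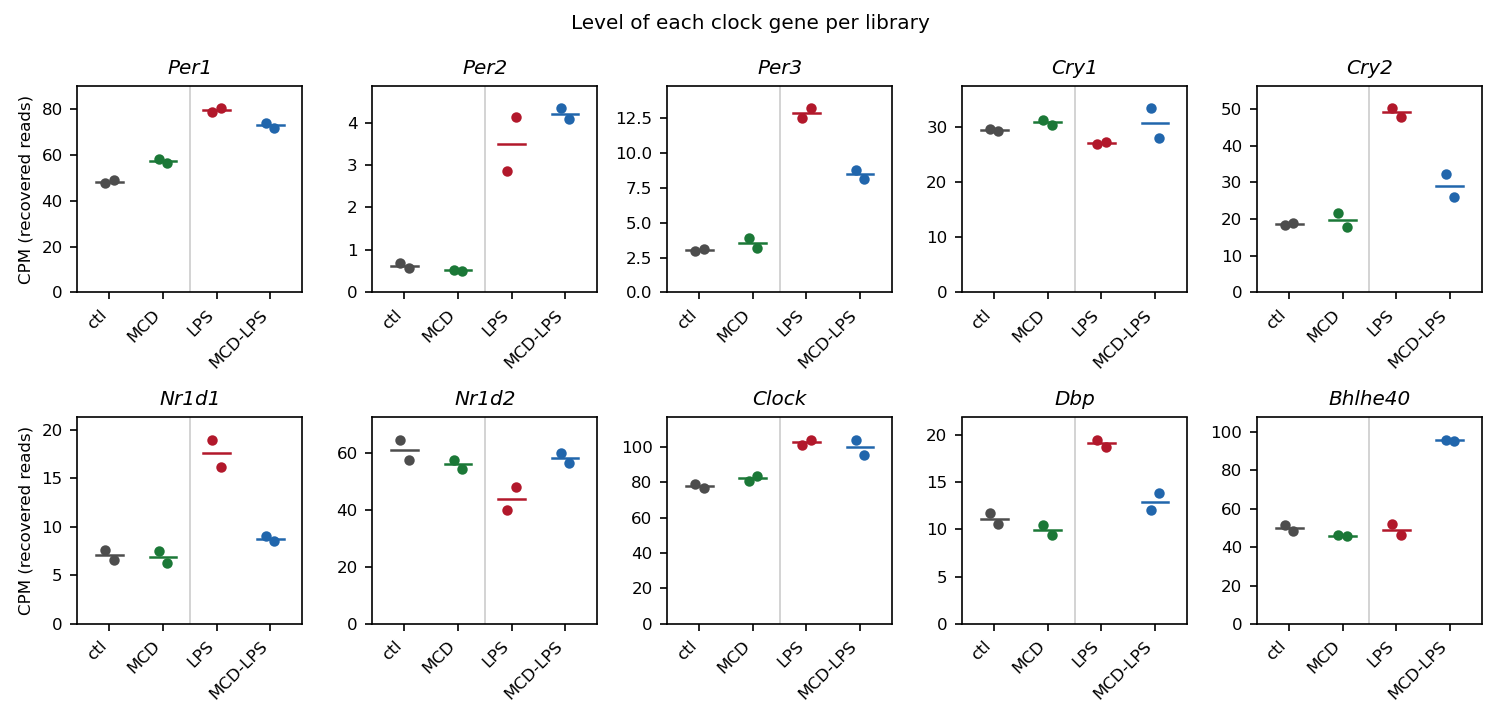
CPM of recovered reads (vertical axes, each from 0) for each clock gene in every library; points are libraries and lines the group means, and the grey line parts the tables, which were normalized separately. Nr1d1 and Cry2 stand highest in the LPS libraries, and Bhlhe40 stands at 96 and 95.4 CPM in the MCD-LPS libraries against 45.8 to 51.8 CPM in the other 6.

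The levels with and without LPS in cells that had received MCD are given beside the ratios of LPS to ctl as descriptions on CPM, and the test of their difference, given above, did not pass for Dbp, Clock, Cry1 or Per2. Nr1d1 stood at 6.9 CPM in MCD and 8.81 CPM in MCD-LPS cells (means, 1.28-fold, beside 2.47-fold for LPS against ctl). Cry2 stood at 19.7 and 29.1 CPM (1.48-fold beside 2.64-fold) and Per3 at 3.55 and 8.46 CPM (2.38-fold beside 4.22-fold). Dbp stood at 9.96 and 12.9 CPM (1.3-fold beside 1.72-fold), and Per1 at 57.5 and 73 CPM (1.27-fold beside 1.65-fold). Clock stood at 82.1 and 99.4 CPM (1.21-fold beside 1.32-fold).

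Nr1d2, whose level was lower in LPS than in ctl cells, stood at 56.1 CPM in MCD and 58.3 CPM in MCD-LPS cells (log2 ratio 0.06 beside -0.48). Bhlhe40, with like levels in ctl and LPS cells, stood at 46 CPM in MCD and 95.7 CPM in MCD-LPS cells (1.06 beside -0.02). Per2 had log2 ratios of 3.02 and 2.48, and Cry1 of -0.01 and -0.12. For MCD-LPS against MCD, edgeR and DESeq2 each called 8 members higher and 0 lower, Nr1d2 (edgeR adjusted p = 0.231) and Cry1 (edgeR adjusted p = 0.59) being the exceptions, beside 70% of all genes with edgeR (34.4% higher, 35.6% lower) and 64% with DESeq2 (31.5% higher, 32.5% lower). The differences between these ratio pairs are the same contrast as the differences tested above, so they add no separate evidence.

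**Figure D4:**
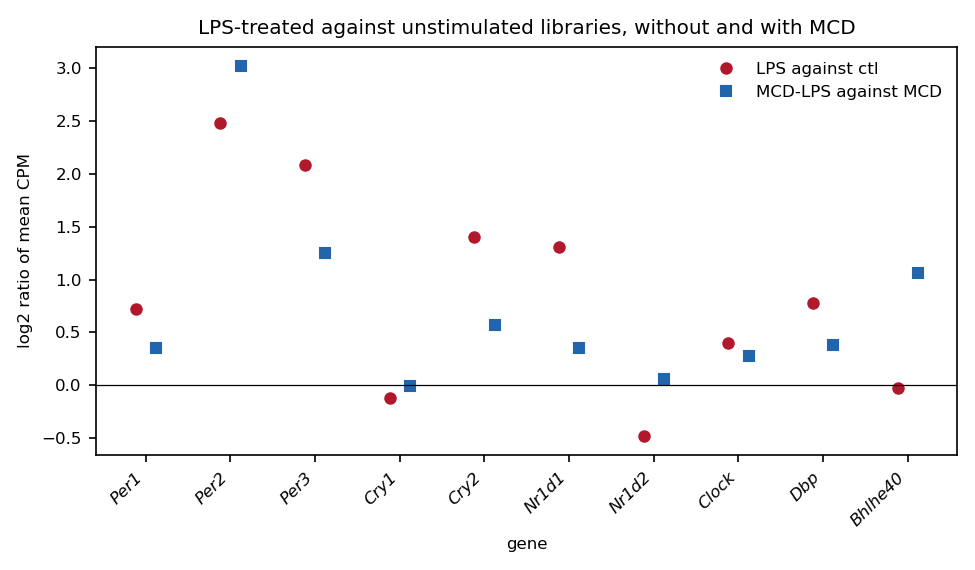
Log2 ratio of mean CPM with LPS to mean CPM without LPS for each clock gene, in cells without MCD (circles, LPS against ctl) and with MCD before (squares, MCD-LPS against MCD); each mean is over 2 libraries. For Nr1d1 the circle lies at 1.31 and the square at 0.35, and for Bhlhe40 they lie at -0.02 and 1.06.

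The genes whose log2 levels followed each member most closely over the 8 libraries were listed as a description, with Pearson's r over 4 groups of 2, so that differences between groups make up most of each r. Bhlhe40 was followed most closely by Nfkb1 (r = 0.980), which encodes the p105 and p50 subunit of NF-κB, Tmbim6 (0.972) and Gm19557 (0.972). Nr1d1 was followed by Bbs12 (0.994), the glycolytic regulator gene Pfkfb3 (0.994) and Whamm (0.992). Among those of Per1 were Cdk17 (0.994) and the cytokine gene Lif (0.993).

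Among those of Per3 were Mpv17l and the histone demethylase gene Kdm4b, both at 0.998. For Cry2 they were 1190002N15Rik (0.995), 4921507P07Rik (0.994) and Spata6 (0.993), and for Dbp they were Pla2g15 (0.991), 5330426P16Rik (0.987) and Kbtbd11 (0.985). For Nr1d2 they were Atp6v0b (0.978), Erich1 (0.972) and Chtop (0.972), none of them shared with Nr1d1. None of these followers was itself a clock gene of the lists. Only the 3 closest of the 11545 genes compared were kept for each member, so neither absence shows how far clock genes follow each other.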

How the data were processed

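Gene expression was measured by RNA-seq (Ribo-Zero, KAPA stranded kit; strand use in counting not given) in 8 libraries. Per the labels, the submitters' notes name STAR 2.5.3, HTSeq 0.9.1, DESeq2 1.18.1 and mm10; the study's methods name another quantifier, and which made the tables is not settled. The deposited values are a signal: the authors scaled each library's gene counts by its size factor, separately in each table. In each library 100% of values were integer multiples (tolerance 0.01) of the value of 1 read, which gave back the reads. Of 10 tables, 2 were used. The authors' comparison columns (log2 fold changes, standard errors, Wald statistics, p-values) and 12 columns of libraries outside the 8 samples were not used. The files hold another set of untreated and LPS libraries; by inference, ctl and LPS are the ones that share tables with MCD-treated libraries.

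The members and lists were chosen with earlier results of these data known. Genes reaching 10 in at least 2 libraries of the table entered limma 3.58.1 (R 4.3.3; trend, log2(value + 1), pseudocount 1, all 8 libraries, no replicate block, two-sided, Benjamini-Hochberg at 0.05 over all genes). All 10 members passed this filter in both tables. Fold changes on this scale understate changes of low genes. Named were all members, Arntl and each listed clock gene called in any test; the 3 most alike genes were those with the highest Pearson r of log2(CPM + 1) for members called in a test; some genes these rules pick are not reported here. LPS against ctl had no main test, because tables were normalized separately; edgeR 4.0.16 and DESeq2 1.42.0 on recovered reads were alternatives. Others were TMM scaling, pseudocounts 0.5 and 10, a minimum of 50 or no filter, 4 libraries only, a replicate block and leaving out each library. Exon lengths and overlaps came from GENCODE (GRCm38), promoter windows from RefSeq. The 95% intervals come from limma's spread between libraries. The floor of 3 counts covers counting error only, since PCR copies were not told apart from separate molecules.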

Additional observations from a re-analysis of the deposited data

Results flagged for a closer look

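The change with MCD before LPS differed from the change with MCD at rest, by limma's test of the difference itself across 11545 genes, for 12 of the clock genes described. These are differences of log2 fold changes, 2 libraries per group. Among the members they were -0.93 for Nr1d1, -0.82 for Cry2, -0.80 for Per3, -0.36 for Per1, 0.55 for Nr1d2 and 1.09 for Bhlhe40. Among the other clock genes they were -0.94 for Bhlhe41 (adjusted p = 0.000617), -0.75 for Ciart (adjusted p = 0.0221), -0.50 for Cipc (adjusted p = 0.00859), -0.43 for Arntl (adjusted p = 0.00541), -0.35 for Csnk1e (adjusted p = 0.00809) and 0.46 for Usp2 (adjusted p = 0.0182). The differences of Nr1d2, Ciart and Usp2 lost their calls without single libraries, with adjusted p up to 0.0765, 0.0767 and 0.078. The time since MCD and the table differ along with LPS, and their part was not tested.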

How the results depend on the processing

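Members called kept their counts, 1 higher at rest and 2 higher and 4 lower before LPS, under all settings that kept all libraries. Leaving out each library gave 0 to 1 members higher at rest, 1 to 3 higher and 4 lower before LPS, and 1 to 2 higher and 4 to 5 lower for the difference. Over all genes the counts at rest, 127 higher and 4 lower, became 200 and 15 with DESeq2, 84 and 1 without a filter on low values, 450 and 115 with the 4 libraries of the table alone, and 27 to 289 and 0 to 31 on leaving out each library; before LPS, 1548 and 1551 became 819 and 972 with 4 libraries alone and 890 to 1795 and 924 to 1605 on leaving out each library; for the difference, 822 and 1153 became 245 to 1306 and 576 to 1385. The cause was not tested. Values reversed, none of them called: at rest, on leaving out each library, Cry2 ran from -0.06 (MCD replicate 1 out) to 0.22, Nr1d1 from -0.17 to 0.09 (0.07 with ctl replicate 1 out, 0.09 with MCD replicate 2 out), Ciart from -0.23 to 0.20 (MCD replicate 2 out), Nampt from -0.07 to 0.01 (0.01 with ctl replicate 2 out, 0.00 with MCD replicate 2 out) and Cipc from -0.15 to 0.01 (ctl replicate 1 out); before LPS, Clock ran from -0.10 to 0.04 (MCD-LPS replicate 2 out); for the difference, Cry1 ran from -0.02 (MCD-LPS replicate 1 out) to 0.25. Where a library was left out, the lone library of its group was assumed to vary like the others. The Dbp difference passed without LPS replicate 2 (-0.42). Of the alternative member ratios on CPM, 9 of 60 for LPS against ctl and 8 of 60 for MCD-LPS against MCD moved by over 1 SD; joint normalization shifted them by at most 0.07.

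Same-numbered libraries showed no shared deviation (correlation 0.037 in both tables). This cannot exclude that the numbers pair the samples, since much of each library's deviation may be its own. With a replicate block, genes called at rest were 147 higher and 3 lower, before LPS 1538 and 1527, and for the difference 798 and 1121; the members' counts did not move. Depth limits Per2 most, with 23 reads in its lowest library.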
